A study of Homo sapiens with 9 samples.

Results

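The genes described are 10 transcripts of the stress response run by the transcription factors ATF4 and CHOP, together with the secreted stress cytokine GDF15. They are GDF15, DDIT3 (which encodes CHOP), ATF3, ATF4, TRIB3, CHAC1, SESN2, DDIT4, ASNS and HSPA5, and were taken by gene symbol from a table of 58037 genes. Of the 10 genes, 10 were measured above the filter on low values that left 12965 genes to test. In the integrated stress response, kinases that sense unfolded protein, amino acid shortage, haem shortage or viral RNA phosphorylate the initiation factor eIF2. General translation then falls, while ATF4 messenger RNA is translated more efficiently, so that ATF4 protein can rise without a change in its transcript. ATF4 then induces CHOP, ATF3, TRIB3, CHAC1, SESN2 and ASNS among others, and GDF15 is widely used as a secreted marker of this response and of p53 activity.

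RNA was sequenced in 3 human lines of triple-negative breast cancer, with 1 library labelled GSK343, 1 labelled shEZH2 and 1 control for each line. The lines are MDA-MB-231 (replicate 1), MDA-MB-436 (replicate 2) and MDA-MB-453 (replicate 3). GSK343 is a drug that inhibits EZH2, the methyltransferase of Polycomb repressive complex 2 that places the repressive mark on lysine 27 of histone H3, and shEZH2 is a short hairpin RNA against the EZH2 transcript. The sample labels call the controls untreated, while the table headers call them shControl, so it is uncertain if they carried a hairpin without a target. No dose, time or number of hairpins is given in those sources. With 1 library per line and condition the lines are the only replicates (n = 3 per group). A p-value of a comparison between conditions thus reflects the spread of treatment effects among these lines only. The test of differences between lines rests on another spread, which is stated with it. Values are RPKM (reads scaled to gene length and library size) and are always given in that order of lines.

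EZH2, the gene that both interventions aim at, stood at 5.77, 7.53 and 7.99 RPKM in the libraries labelled GSK343, at 16.4, 37.4 and 16.2 RPKM in those labelled shEZH2 and at 27.4, 38.9 and 42.3 RPKM in the controls. The transcript was thus lowest under the label of the enzyme inhibitor and close to its control level in the library labelled shEZH2 of MDA-MB-436, so the groups are called by their labels throughout. For the mean of both labels against control, EZH2 was the 1 gene of 4 PRC2 core genes that passed, with a log2 change of -1.44 ± 0.41 (limma's adjusted p = 0.000962). In that comparison 4.3% of all genes tested fell. For GSK343 alone 1 of the 4 genes fell, where 1.6% of all genes fell. For shEZH2 alone 0 of the 4 passed, so EZH2 did not pass under that label, where 2.28% of all genes fell. The libraries labelled MDA-MB-453 did not stand out for markers of that luminal line. The 15 luminal markers summed to 241, 277 and 205 RPKM in its GSK343, shEZH2 and control libraries, below the 361, 436 and 434 RPKM of MDA-MB-231, and 5 or 6 of the 15 were under 1 RPKM. KRT19, a luminal keratin and a large part of the MDA-MB-231 sums, stood at 60.0, 91.1 and 41.8 RPKM in the same libraries. These levels lay between those of MDA-MB-231 (141, 201 and 151 RPKM) and MDA-MB-436 (0.207, 0.120 and 0.383 RPKM). Not every marker did so: GATA3 under GSK343 was above both other lines (6.05 against 5.50 and 3.27 RPKM). KRT18 in the control was below both (62.1 against 91.6 and 100.4 RPKM). FOXA1 exceeded MDA-MB-231 in each condition (2.37, 1.62 and 1.01 against 0.204, 0.316 and 0.150 RPKM). The 12 mesenchymal markers summed to 786, 823 and 1238 RPKM, between MDA-MB-231 (951, 978 and 1286) and MDA-MB-436 (616, 631 and 886). Of the genes averaging at least 5 RPKM in a condition, 1.92%, 0.227% and 25.4% lay more than 1.25 times outside the range of the other lines in the GSK343, shEZH2 and control libraries labelled MDA-MB-453. These libraries, the treated ones most of all, may therefore not be independent of the other lines, and results are given with and without them. The share was far higher in the control. Whether this control matches the treated libraries of the same line label was not tested. Depth, recovered from the RPKM steps, ran from 14757000 to 18283000 reads per library. Markers of leukocytes and endothelium summed to 8.22 to 9.32 RPKM over 9 genes in the GSK343 libraries, 9.90 to 15.6 RPKM in the shEZH2 libraries and 5.71 to 7.43 RPKM in the controls, mostly CD14, with PTPRC at no more than 0.203 RPKM in any library. Of the 9 genes, 3 were above the filter on low values. For GSK343 0 of these passed, and for shEZH2 1 was higher, where 8.35% of all genes rose. Whether such cells contributed to the results was not tested. In bulk RNA of this kind, fewer cells of a type and less RNA per cell cannot be told apart.

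GDF15, a cytokine of the TGF-beta superfamily that signals through the brainstem receptor GFRAL, had the largest change of the 10 genes under both labels. It lies on chromosome 19 (GRCh38, 18374731 to 18389176, plus strand, gene identifier ENSG00000130513.6). GDF15 stood at 23.2, 21.1 and 28.8 RPKM in the libraries labelled GSK343, at 22.0, 29.2 and 21.6 RPKM in those labelled shEZH2 and at 4.06, 2.74 and 1.40 RPKM in the controls. All 6 treated libraries lay above all 3 controls, and the lowest control was that of MDA-MB-453. The group means were 24.4 ± 3.94 RPKM under GSK343, 24.3 ± 4.29 under shEZH2 and 2.73 ± 1.33 in the controls (SD, n = 3 each). These levels rest on 715, 731 and 921 reads under GSK343, 839, 1086 and 750 reads under shEZH2 and 142, 96 and 47 reads in the controls.

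Relative to the control of the same line, GDF15 was 5.72, 7.72 and 20.6 times as high under GSK343 and 5.42, 10.7 and 15.5 times as high under shEZH2. The fitted log2 fold change of RPKM + 1 was 2.82 ± 0.51 for GSK343 (95% confidence interval here and below, limma's adjusted p = 0.000136) and 2.81 ± 0.51 for shEZH2 (limma's adjusted p = 0.000117). By p it ranked 5 of 12965 genes for GSK343 and 6 of 12965 for shEZH2. In MDA-MB-436, EZH2 in the library labelled shEZH2 was 37.4 RPKM, against 38.9 RPKM in the control, while GDF15 was 29.2 RPKM, against 2.74 RPKM in the control. GDF15 passed the test without any single library and without any whole line, with log2 changes of 2.412 to 3.12 for GSK343 and 2.502 to 3.13 for shEZH2. With no filter on low values, its limma adjusted p was 0.0513 for GSK343 and 0.0509 for shEZH2.

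**Figure D1:**
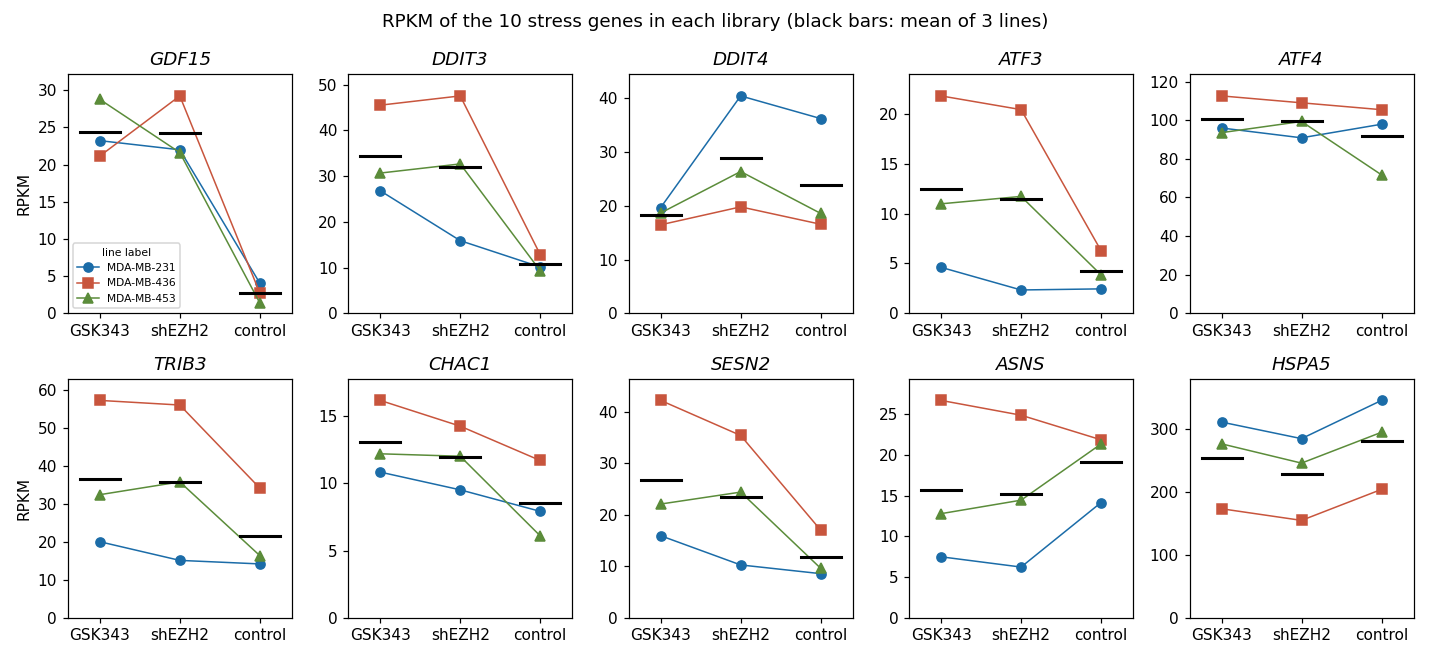
Levels of the 10 genes in RPKM (vertical axes, each from 0) by condition (horizontal axes, GSK343, shEZH2 and control), with 1 point per library, lines joining the libraries of a cell line, and horizontal bars for the mean of 3 lines. GDF15 averaged 24.4 and 24.3 RPKM under GSK343 and shEZH2 and 2.73 RPKM in the controls, while ATF4 averaged 100.7, 99.7 and 91.7 RPKM.

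The promoter windows of RefSeq (250 bases before to 50 bases after each annotated start, GRCh38.p14) were searched on both strands for 3 motifs of this pathway, and all 10 genes had a window. The core of the C/EBP-ATF response element, to which ATF4 and CHOP bind as dimers with C/EBP proteins, was searched as TGATGNAA. It was found in 3 of the 10 genes (ASNS, ATF3 and CHAC1), against 4.46% of all genes (3.62% of 35116 windows). The cAMP response element TGACGTCA was found in 0 of the 10 genes, against 2.25% of genes (1.85% of windows). The endoplasmic reticulum stress response element, a site of ATF6, was found in HSPA5, against 0.0916% of genes (0.0769% of windows). The 250 bases upstream of the start are printed for these 4 genes, which carry the matches, and for GDF15, which changed most. Each runs 5′ to 3′ in the direction of transcription, and capitals mark the match. They are ASNS (chr7:97872409-97872658, minus strand, match 68 to 61 bases before the start), CHAC1 (chr15:40953221-40953470, plus strand, match on the opposite strand), ATF3 (chr1:212565157-212565406, plus strand, 1 of its annotated starts), HSPA5 (chr9:125241344-125241593, minus strand) and GDF15 (chr19:18385908-18386157, plus strand, no match).
ASNS: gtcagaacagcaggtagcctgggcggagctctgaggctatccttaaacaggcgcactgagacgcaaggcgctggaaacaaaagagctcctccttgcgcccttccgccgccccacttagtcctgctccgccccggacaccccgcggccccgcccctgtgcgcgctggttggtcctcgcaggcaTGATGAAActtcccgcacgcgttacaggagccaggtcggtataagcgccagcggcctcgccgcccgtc
CHAC1: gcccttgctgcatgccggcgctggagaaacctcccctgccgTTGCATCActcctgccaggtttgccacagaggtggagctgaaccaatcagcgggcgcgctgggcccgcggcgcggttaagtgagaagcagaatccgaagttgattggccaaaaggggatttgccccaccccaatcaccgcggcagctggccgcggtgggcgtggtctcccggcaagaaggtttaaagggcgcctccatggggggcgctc
ATF3: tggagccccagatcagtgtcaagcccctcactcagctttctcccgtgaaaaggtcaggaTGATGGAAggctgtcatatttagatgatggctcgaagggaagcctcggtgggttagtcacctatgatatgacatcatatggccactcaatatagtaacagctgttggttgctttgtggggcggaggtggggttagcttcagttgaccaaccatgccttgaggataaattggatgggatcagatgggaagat
HSPA5: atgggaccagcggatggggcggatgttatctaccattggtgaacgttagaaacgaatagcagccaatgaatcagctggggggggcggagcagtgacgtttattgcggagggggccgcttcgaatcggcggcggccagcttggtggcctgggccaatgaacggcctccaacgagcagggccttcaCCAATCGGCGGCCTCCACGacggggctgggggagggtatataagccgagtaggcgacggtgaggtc
GDF15: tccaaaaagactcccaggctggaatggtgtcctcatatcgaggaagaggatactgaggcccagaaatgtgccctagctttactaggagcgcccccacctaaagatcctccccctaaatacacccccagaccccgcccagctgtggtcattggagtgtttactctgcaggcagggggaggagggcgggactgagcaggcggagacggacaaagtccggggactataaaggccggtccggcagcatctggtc
A match describes letters in this window and not binding, and a window without a match can have such a site elsewhere. The genes with and without a C/EBP-ATF core both include genes that passed the test and genes that did not: ASNS carries it and did not pass, while GDF15 and DDIT3 have no match here and passed.

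Among the transcription factors, DDIT3 and ATF3 rose under both labels, while ATF4 did not pass the test under either. DDIT3 encodes CHOP, a C/EBP-family factor that promotes cell death under lasting stress (chromosome 12, 57516588 to 57521737, minus strand). DDIT3 stood at 26.8, 45.5 and 30.7 RPKM under GSK343, at 15.9, 47.6 and 32.7 RPKM under shEZH2 and at 10.1, 12.8 and 9.31 RPKM in the controls. All 6 treated libraries lay above all controls, and the lowest of them was the shEZH2 library of MDA-MB-231. Its log2 change was 1.56 ± 0.45 for GSK343 (limma's adjusted p = 0.00190) and 1.37 ± 0.45 for shEZH2 (limma's adjusted p = 0.00343). These calls held without any single library. Without the 3 libraries labelled MDA-MB-453 neither call passed, with log2 changes of 1.53 for GSK343 and 1.21 for shEZH2. Exons of DDIT3 share 355 bases with MARS and 58 with MBD6 on the opposite strand, where reads may be shared if counting ignores strand. A further 105 bases are shared with AC022506.1 on the same strand and are ambiguous under any strand setting.

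ATF3 (chromosome 1, 212565334 to 212620777, plus strand), a factor that ATF4 and CHOP induce early in stress, stood at 4.61, 21.8 and 10.99 RPKM under GSK343, at 2.34, 20.4 and 11.7 RPKM under shEZH2 and at 2.45, 6.28 and 3.86 RPKM in the controls. The groups overlapped, with MDA-MB-231 lowest in each. Both treated libraries of MDA-MB-436 and of MDA-MB-453 were at 2.85 to 3.47 times their control, whereas in MDA-MB-231 the shEZH2 library was at 0.955 times the control. The log2 change was 1.22 ± 0.54 for GSK343 (limma's adjusted p = 0.0151, higher in 3 of 3 lines) and 0.97 ± 0.54 for shEZH2 (limma's adjusted p = 0.0303, higher in 2 of 3 lines). For GSK343 the call was lost without the GSK343 library of MDA-MB-231 (log2 change 1.22), the control of MDA-MB-436 (0.96) or the control of MDA-MB-453 (1.09). For shEZH2 it was lost without the shEZH2 library of MDA-MB-436 (0.78) or MDA-MB-453 (0.78) or the control of MDA-MB-436 (0.71) or MDA-MB-453 (0.84).

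ATF4 itself (chromosome 22, 39519695 to 39522685, plus strand) was abundant in all libraries, at 96.0, 113 and 93.5 RPKM under GSK343, 90.9, 109 and 99.3 RPKM under shEZH2 and 97.9, 105 and 71.7 RPKM in the controls. Treated and control levels overlapped, and the control of MDA-MB-453 was the lowest library. Its log2 change was 0.15 ± 0.33 for GSK343 (limma's adjusted p = 0.565) and 0.14 ± 0.33 for shEZH2 (limma's adjusted p = 0.595), so a rise of up to 0.48 and 0.46 on the log2 scale lies within the intervals. The 4 ATF4 pseudogenes of the table reached at most 0.320 RPKM. Protein was not measured, so the level of ATF4 protein is not known from these data.

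Of the effector genes, TRIB3 and SESN2 rose under both labels and CHAC1 rose under GSK343. TRIB3 (chromosome 20, 362835 to 397559, plus strand), a pseudokinase that binds ATF4 and AKT, stood at 20.1, 57.3 and 32.5 RPKM under GSK343, at 15.1, 56.1 and 35.9 RPKM under shEZH2 and at 14.2, 34.2 and 16.4 RPKM in the controls. The groups overlapped, with MDA-MB-436 highest in each, and every treated library was above the control of its line. The fitted log2 change was 0.71 ± 0.38 for GSK343 (limma's adjusted p = 0.0309) and 0.62 ± 0.38 for shEZH2 (limma's adjusted p = 0.0423). The GSK343 call was lost without the GSK343 library of MDA-MB-231 (log2 change 0.70), MDA-MB-436 (0.73) or MDA-MB-453 (0.71), or without the control of MDA-MB-436 (0.69) or MDA-MB-453 (0.54). The shEZH2 call was lost without the GSK343 library of MDA-MB-231 (0.62), the shEZH2 library of MDA-MB-436 (0.59) or MDA-MB-453 (0.45), or the control of MDA-MB-436 (0.60) or MDA-MB-453 (0.45).

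SESN2 (chromosome 1, 28259527 to 28282491, plus strand), a leucine sensor that restrains mTORC1, stood at 15.9, 42.2 and 22.1 RPKM under GSK343, at 10.3, 35.4 and 24.4 RPKM under shEZH2 and at 8.57, 17.0 and 9.62 RPKM in the controls. MDA-MB-436 was again highest in each group, and its control exceeded both treated libraries of MDA-MB-231, so the groups overlapped. The log2 change was 1.07 ± 0.40 for GSK343 (limma's adjusted p = 0.00639) and 0.84 ± 0.40 for shEZH2 (limma's adjusted p = 0.0168). The GSK343 call was lost without the control of MDA-MB-453 (0.95), and the shEZH2 call without the shEZH2 library of MDA-MB-453 (0.64) or the control of MDA-MB-436 (0.74) or MDA-MB-453 (0.72).

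CHAC1 (chromosome 15, 40952962 to 40956519, plus strand), which degrades glutathione, stood at 10.8, 16.2 and 12.2 RPKM under GSK343, at 9.51, 14.2 and 12.01 RPKM under shEZH2 and at 7.92, 11.7 and 6.09 RPKM in the controls. All 6 treated libraries exceeded the control of their own line, standing at 1.20 to 1.38 times its level in MDA-MB-231 and MDA-MB-436 and at 2.002 and 1.97 times in MDA-MB-453, although the control of MDA-MB-436 overlapped the treated libraries of other lines. The log2 change was 0.58 ± 0.34 for GSK343 (limma's adjusted p = 0.0424) and 0.46 ± 0.34 for shEZH2, which did not pass (limma's adjusted p = 0.0781). The GSK343 call was lost without any one of 6 libraries, namely the GSK343 library of MDA-MB-231 (0.61), MDA-MB-436 (0.60) or MDA-MB-453 (0.53), the shEZH2 library of MDA-MB-231 (0.58) or MDA-MB-436 (0.58), or the control of MDA-MB-453 (0.40). Rescaling to the TPM scale (limma's adjusted p = 0.0746) and fitting only the libraries compared (0.0504) also ended it. Rescaling by median ratios did so too (limma's adjusted p = 0.0852), as it ended the TRIB3 calls (0.0581 for GSK343 and 0.0744 for shEZH2).

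DDIT4 (chromosome 10, 72273920 to 72276036, plus strand), which encodes REDD1, an inhibitor of mTORC1 induced by hypoxia, glucocorticoids and ATF4, did not pass under either label. DDIT4 stood at 19.7, 16.5 and 18.7 RPKM under GSK343, at 40.4, 19.8 and 26.4 RPKM under shEZH2 and at 36.2, 16.6 and 18.6 RPKM in the controls. In MDA-MB-231 the GSK343 library was at 0.543 times its control and the shEZH2 library at 1.12 times, while the other GSK343 libraries were at 0.994 and 1.004 times their controls. Its fitted log2 change was -0.28 ± 0.39 for GSK343 (limma's adjusted p = 0.340) and 0.29 ± 0.39 for shEZH2 (limma's adjusted p = 0.305). The antisense gene DDIT4-AS1 shares 847 exonic bases with DDIT4, and their reads cannot be told apart where counting ignores strand.

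ASNS (chromosome 7, 97852118 to 97872542, minus strand), asparagine synthetase and a classical ATF4 target, did not follow the genes above. ASNS stood at 7.50, 26.7 and 12.8 RPKM under GSK343, at 6.24, 24.9 and 14.5 RPKM under shEZH2 and at 14.2, 21.9 and 21.4 RPKM in the controls. Both treated libraries were below the control in MDA-MB-231 (0.529 and 0.440 times) and in MDA-MB-453 (0.599 and 0.677 times), and both were above it in MDA-MB-436 (1.22 and 1.14 times). The log2 change over the lines was -0.42 ± 0.47 for GSK343 (limma's adjusted p = 0.242) and -0.47 ± 0.47 for shEZH2 (limma's adjusted p = 0.171). Without the control of MDA-MB-436 ASNS passed as lower, at -0.76 for GSK343 and -0.81 for shEZH2, as it did without all 3 libraries of that line, at -0.77 and -0.80. ASNS shares 1985 exonic bases with AC079781.5 on the same strand, and its 4 pseudogenes reached at most 0.133 RPKM.

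HSPA5 (chromosome 9, 125234853 to 125241330, minus strand), which encodes BiP, the main chaperone of the endoplasmic reticulum and an ATF6 target, was the most abundant of the 10 genes. HSPA5 stood at 311, 173 and 277 RPKM under GSK343, at 285, 155 and 246 RPKM under shEZH2 and at 346, 204 and 295 RPKM in the controls. Each treated library was below the control of its own line, at 0.759 to 0.938 times, and the groups overlapped. Log2 changes were -0.16 ± 0.31 for GSK343 (limma's adjusted p = 0.507) and -0.31 ± 0.31 for shEZH2 (limma's adjusted p = 0.171), neither of which passed.

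**Figure D2:**
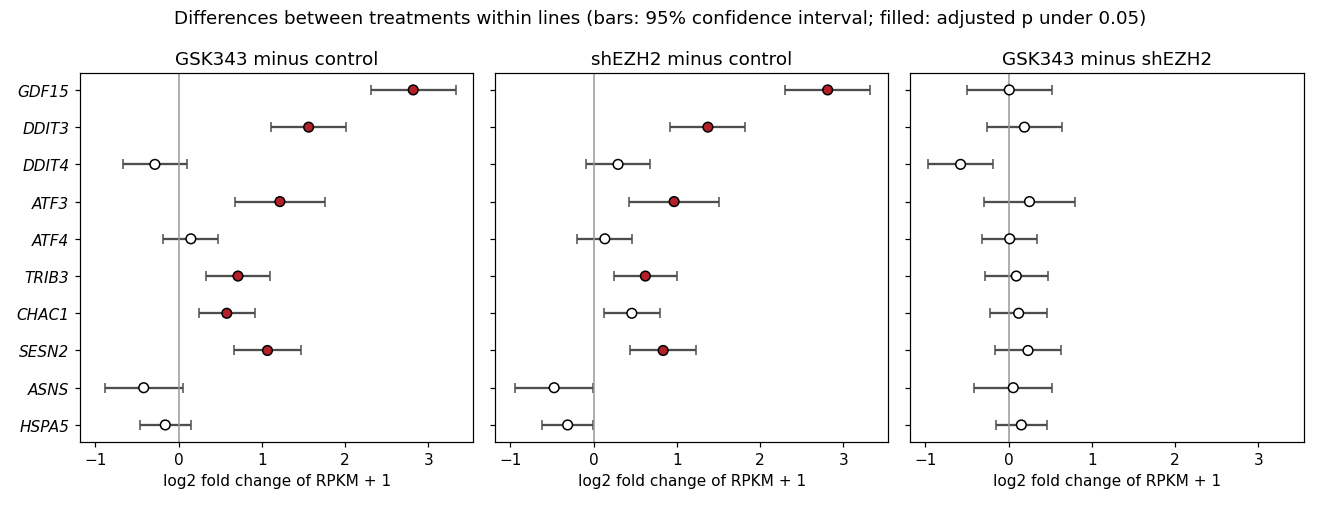
Log2 fold changes of RPKM + 1 (horizontal axis) of the 10 genes (vertical axis) for GSK343 minus control, shEZH2 minus control and GSK343 minus shEZH2, with 95% confidence intervals and filled points where the adjusted p was under 0.05. GDF15 lies at 2.82 and 2.81 for both labels against control, and in the direct comparison 0 of the 10 genes passed.

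In all, 6 of the 10 genes rose and 0 fell for GSK343, where 7.85% of all genes tested changed, 6.25% higher and 1.6% lower. For shEZH2 5 of the 10 rose and 0 fell, where 10.6% of all genes tested changed, 8.35% higher and 2.28% lower. Both counts use the same 3 control libraries, so they are not independent of each other. The median log2 change of the 10 genes was 0.65 for GSK343 and 0.54 for shEZH2, beside 0.06 and 0.05 over all genes tested. The 10 genes were chosen with earlier results of these data known. Their counts and medians, here and below, are thus a description and not independent evidence that the pathway stands out. For the mean of both labels against control, 6 of the 10 genes rose, where 16.5% of all genes changed, 12.2% higher and 4.3% lower. GDF15 and DDIT3 were also the 2 genes whose treated and control libraries did not overlap, in a table where this held, in the higher direction, for 6.67% of genes under GSK343, 7.39% under shEZH2 and 4.57% under both. In the lower direction 3.03%, 4.48% and 2.14% of all genes did not overlap, and 0 of the 10 genes. Under median-ratio rescaling the split of all calls moved to 517 higher and 444 lower for GSK343, against 810 and 208 as deposited, and to 796 and 620 for shEZH2, against 1082 and 295. For the mean of both labels it was 1129 higher and 1151 lower after this rescaling. Without the 3 libraries labelled MDA-MB-453, GDF15 alone passed for each label and 0.369% and 0.169% of all genes passed in either direction. Without the control library of MDA-MB-453 alone, GDF15 and DDIT3 passed for each label.

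The labels were then compared with each other. None of the 10 genes differed between GSK343 and shEZH2 with limma's adjusted p under the threshold of 0.05, as was true of all 12965 genes (0% called), of which 295 had an unadjusted p under 0.05. DDIT4 was the single gene of the 10 among those 295, at 18.3 ± 1.64 RPKM under GSK343 and 28.9 ± 10.5 RPKM under shEZH2 (SD, n = 3 each). Its difference of -0.58 ± 0.39 on the log2 scale (limma's adjusted p = 0.9998) was in the same direction in 3 of 3 lines. The groups nearly touched, with the highest GSK343 library at 19.7 RPKM and the lowest shEZH2 library at 19.8 RPKM. For GDF15 the difference was 0.01 with an interval of -0.50 to 0.52, and for ATF3 0.25 with an interval of -0.29 to 0.79. These intervals leave room for differences in either direction, so the labels are not shown to act alike.

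The size of the change differed between lines in the values, without passing a test. In MDA-MB-231 the GSK343 library stood above its control by 1.32 for DDIT3, 0.70 for ATF3, 0.47 for TRIB3 and 0.82 for SESN2 on the log2 scale. The shEZH2 library of the same line lay closer to the control, with differences of 0.60, -0.05, 0.09 and 0.24 for these 4 genes. In MDA-MB-436 the same genes stood 1.75, 1.65, 0.73 and 1.26 above the control under GSK343 and 1.81, 1.56, 0.70 and 1.01 above it under shEZH2. GDF15 showed no such gap in MDA-MB-231, at 2.26 under GSK343 and 2.18 under shEZH2. An F-test in limma asked whether the mean response to both labels differed between lines. In this fit the GSK343 and shEZH2 libraries of a line stood as its replicates against 1 control library. The 3 residual degrees of freedom came only from the gap between the labels within lines. Spread among controls of a line could not be measured, so the p-values of this test do not reflect replicate spread. It called 0 of the 10 genes, where 0.0231% of all genes passed, and the smallest adjusted p was 0.0940, for ASNS, with log2 responses of -0.95, 0.23 and -0.61. For GDF15 the responses were 2.22, 2.79 and 3.44 (limma's adjusted p = 0.128). Between 0 and 7 of the 10 genes passed when single libraries were left out. The 7 genes passed without the GSK343 library of MDA-MB-231, in a fit that called 31.4% of all genes. Leaving out a treated library leaves 1 treated and 1 control library in its line. Leaving out a control takes its whole line out of this test. Without the control of MDA-MB-231 the test thus compared only MDA-MB-436 with MDA-MB-453.

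**Figure D3:**
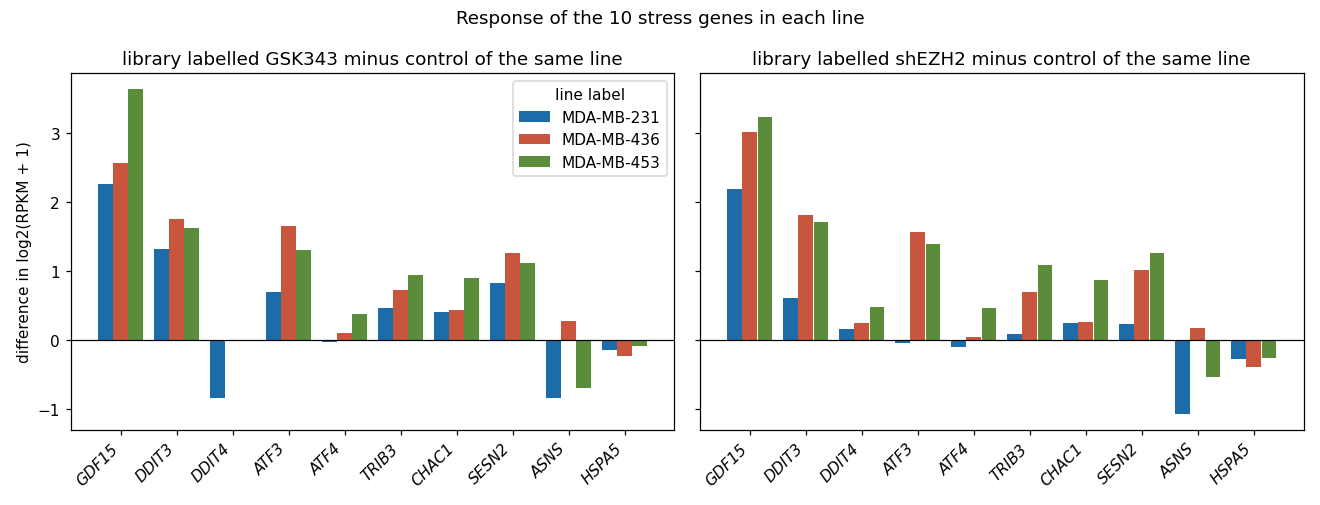
Differences in log2(RPKM + 1) from the control library of the same line (vertical axis) for the 10 genes (horizontal axes). Separate panels show GSK343 and shEZH2, with 1 bar per treated library of each cell line. For ATF3 the shEZH2 library of MDA-MB-231 lies at -0.05, while that of MDA-MB-436 lies at 1.56, and for ASNS the lines lie on both sides of 0.

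Other genes of the pathway were counted from lists by role, with the mean of both labels set against the controls. The lists, too, were chosen with earlier results of these data known, so their counts describe the listed genes and are not independent evidence. Of 18 tested genes among 20 other targets of ATF4 or CHOP, 7 rose and 0 fell, with a median log2 change of 0.24. In this comparison 12.2% of all genes tested rose and 4.3% fell. The counts of every list below, in the fit as reported, stand beside these shares. A count near them, as in the amino acid, tRNA synthetase, eIF2, endoplasmic reticulum, p53 and hypoxia lists, is no result about the list. PPP1R15A, which encodes GADD34, the subunit that directs dephosphorylation of eIF2, rose by 1.16 ± 0.44 (limma's adjusted p = 0.00418). PPP1R15A stood at 197, 147 and 139 RPKM under GSK343, at 86.1, 132 and 137 RPKM under shEZH2 and at 79.4, 59.0 and 46.3 RPKM in the controls. NUPR1, a small stress-induced chromatin protein, rose by 1.08 ± 0.35 (limma's adjusted p = 0.00177) and CEBPB, a dimer partner of ATF4, by 0.83 ± 0.34 (limma's adjusted p = 0.00585). GADD45A, a growth arrest gene, rose by 0.74 ± 0.43 (limma's adjusted p = 0.0271). Under median-ratio rescaling 4 genes of this list rose and 1 fell, where 1129 of all genes rose and 1151 fell. Between 1 and 6 of them passed as higher when single libraries were left out, and 0 passed without the 3 MDA-MB-453 libraries. Of all genes, 5.28% (without the MDA-MB-453 control) to 16.3% (without the MDA-MB-436 control) passed with single libraries left out. Without the 3 MDA-MB-453 libraries 1.45% passed. The lists below have the same backgrounds under these settings. Leaving out the control of MDA-MB-453 ended the calls of PPP1R15A (0.97), CEBPB (0.74) and GADD45A (0.71). The call of GADD45A was also lost when the GSK343 library (0.61) or control (0.82) of MDA-MB-231, or the MDA-MB-436 control (0.68), was left out, and under median-ratio rescaling (adjusted p = 0.0509 in limma).

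Of 19 tested genes for amino acid synthesis and transport in the ATF4 programme, 0 rose and 1 fell, where 12.2% of all genes rose and 4.3% fell. That gene was PSAT1, an enzyme of serine synthesis, at 41.2, 59.7 and 42.4 RPKM under GSK343, 30.5, 61.9 and 45.2 RPKM under shEZH2 and 60.6, 70.6 and 90.0 RPKM in the controls. Every treated library of PSAT1 was below the control of its line, and the log2 change was -0.66 ± 0.35 (limma's adjusted p = 0.0177). This call did not hold when the control of MDA-MB-231 (-0.62) or MDA-MB-453 (-0.48) was left out. With single libraries left out, the number of genes of the list that fell ran from 0 (MDA-MB-231 control) to 5 (MDA-MB-436 control), and it was 4 under median-ratio rescaling. MTHFD2, of mitochondrial folate metabolism, stood at a log2 difference of -0.36 ± 0.28 and SLC1A5, the glutamine carrier, at -0.36 ± 0.29, and neither passed (limma's adjusted p = 0.0766 and 0.0856). Of 13 tested tRNA synthetase genes 1 rose, AARS for alanine, by 0.48 ± 0.31 (limma's adjusted p = 0.0394), a call that was lost without any one of the 7 libraries other than the GSK343 and control libraries of MDA-MB-231, with log2 changes of 0.34 to 0.53. Rescaling by median ratios (adjusted p = 0.0792 in limma) or to the TPM scale (0.0668) also ended it.

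Among 18 tested genes for the eIF2 kinases, eIF2 and its regulators, 0 rose and 2 fell, or 3 under median-ratio rescaling. OMA1, a mitochondrial protease that relays mitochondrial stress to eIF2 kinases, fell by 0.51 on the log2 scale (limma's adjusted p = 0.0278). EIF2B3, a subunit of the eIF2 exchange factor, fell by 0.48 (limma's adjusted p = 0.0411). The OMA1 call was lost without the GSK343 library of MDA-MB-453 (-0.46), the shEZH2 library of MDA-MB-436 (-0.49) or MDA-MB-453 (-0.49), or the control of MDA-MB-436 (-0.47) or MDA-MB-453 (-0.37). The EIF2B3 call was lost without the GSK343 library of MDA-MB-453 (-0.37), the shEZH2 library of MDA-MB-231 (-0.44) or MDA-MB-436 (-0.47), or the control of any line (-0.55, -0.53 and -0.35). Phosphorylation of eIF2 is not visible in transcript levels. Of 23 tested chaperone and degradation genes of the endoplasmic reticulum, 1 rose and 1 fell, and under median-ratio rescaling 1 rose and 4 fell. ERN1, the sensor IRE1, rose by 0.82 ± 0.25 (limma's adjusted p = 0.00145), with levels of 3.74, 2.61 and 3.55 RPKM under GSK343 and 3.54, 2.43 and 3.38 RPKM under shEZH2, against 1.80, 0.817 and 1.60 RPKM in the controls. This call held without each single library and without each line. PDIA6, a disulfide isomerase, fell by 0.43 (limma's adjusted p = 0.0257), a call that was lost without any one of the 7 libraries other than the GSK343 and control libraries of MDA-MB-231 (-0.44 to -0.41). With single libraries left out, 0 to 2 genes of this list fell.

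In the chaperone lists outside the endoplasmic reticulum, the genes that passed in the fit as reported were lower. Of 8 tested cytosolic heat shock genes 5 fell and 0 rose, with a median log2 change of -0.47. HSP90AA1, the inducible HSP90, stood at 201, 163 and 165 RPKM under GSK343, at 210.4, 159 and 184 RPKM under shEZH2 and at 259.8, 266 and 349 RPKM in the controls, a log2 change of -0.69 ± 0.32 (limma's adjusted p = 0.00996). HSPA8, the constitutive HSP70, fell by 0.61 (limma's adjusted p = 0.0143) and DNAJA1, a cochaperone of HSP70, by 0.58 (limma's adjusted p = 0.0144). For each of these 3 genes the call was lost without the control of MDA-MB-453 (-0.53, -0.55 and -0.45). Among 10 mitochondrial chaperones and proteases 2 fell and 0 rose, and 4 fell under median-ratio rescaling. HSPD1, the mitochondrial chaperonin, fell by 0.78 (limma's adjusted p = 0.00591), and that call too was lost without the control of MDA-MB-453 (-0.65). TRAP1, a mitochondrial HSP90, fell by 0.50 (limma's adjusted p = 0.0226), and its call was lost without the GSK343 library of MDA-MB-436 (-0.43), the shEZH2 library of MDA-MB-231 (-0.47) or the control of MDA-MB-436 (-0.40) or MDA-MB-453 (-0.51). With single libraries left out, 0 to 4 of the cytosolic and 0 to 3 of the mitochondrial genes fell, and 0 of both lists without the control of MDA-MB-453. Without the 3 MDA-MB-453 libraries 0 genes of both chaperone lists passed. Without the 3 MDA-MB-436 libraries 1 cytosolic gene rose and 4 fell, and 1 mitochondrial gene fell, where 14.5% of all genes passed.

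Of 20 p53 target genes 1 rose, where 12.2% of all genes rose. It was the cell cycle inhibitor CDKN1A, with a log2 change of 1.45 ± 0.30 (limma's adjusted p = 0.000183). CDKN1A stood at 105, 37.3 and 69.7 RPKM under GSK343, at 120.2, 33.4 and 74.8 RPKM under shEZH2 and at 51.5, 10.3 and 23.8 RPKM in the controls, and its call held without each single library and each line. Of 8 tested hypoxia genes 1 rose, a share like that of all genes, NDRG1 (0.52 ± 0.30, limma's adjusted p = 0.0239), and of 4 tested genes among sestrins, paralogues of the genes described and the GDF15 receptor 1 rose, TRIB1 (0.50 ± 0.29, limma's adjusted p = 0.0255). The NDRG1 call was lost without the GSK343 library of MDA-MB-453 (0.47), the shEZH2 library of MDA-MB-436 (0.48) or the control of MDA-MB-436 (0.41) or MDA-MB-453 (0.47). The TRIB1 call was lost without the GSK343 library of MDA-MB-231 (0.44), the shEZH2 library of MDA-MB-231 (0.48) or MDA-MB-453 (0.49), or the control of MDA-MB-231 (0.33) or MDA-MB-453 (0.57). Under median-ratio rescaling TRIB1 did not pass (adjusted p = 0.0667 in limma) and 0 genes of its list rose, while 1 fell, CHAC2 (-0.46). With no filter on low values, ERN1 and CDKN1A were the genes of all 11 lists that passed.

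**Figure D4:**
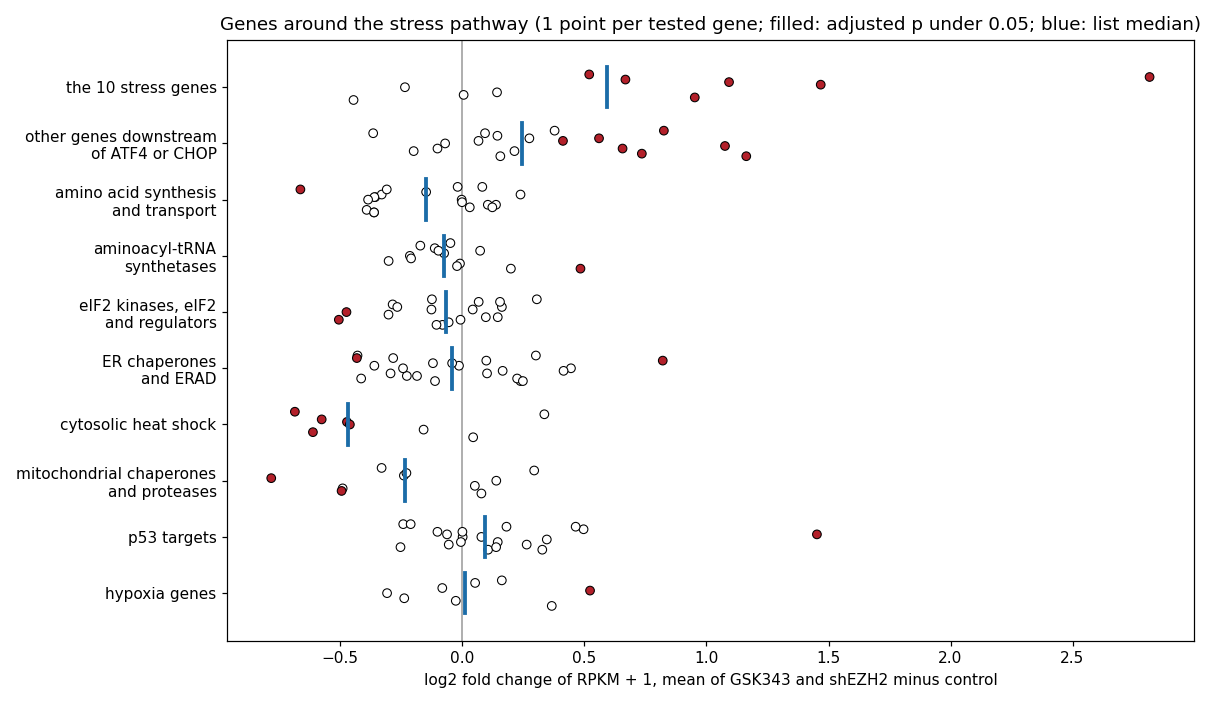
Log2 fold changes of RPKM + 1 (horizontal axis) for the mean of GSK343 and shEZH2 minus control, with 1 point per tested gene of each list (vertical axis), filled where the adjusted p was under 0.05, and a bar at each list's median. The other ATF4 or CHOP targets have a median of 0.24, the cytosolic heat shock genes have -0.47 and all genes tested 0.05.

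The 10 genes also differed in how closely they moved together over the 9 libraries, after the mean of each line was subtracted. The Pearson correlation with DDIT3 was 0.985 for SESN2, 0.973 for ATF3, 0.968 for TRIB3, 0.958 for GDF15 and 0.900 for CHAC1. It was 0.672 for ATF4, -0.07 for DDIT4, -0.44 for ASNS and -0.78 for HSPA5. By this measure SESN2 ranked 14 of 12964 genes, ATF3 61, TRIB3 84, GDF15 141 and CHAC1 695, so many other genes followed DDIT3 as closely. The genes most like DDIT3 were JOSD1, UPP1, ADPRHL1, HS1BP3 and DUSP8P5, with correlations of 0.992 to 0.994. Those most like GDF15 were CPT2, FBXO27, ECM1, KCTD13 and RP5-1187M17.10, with 0.992 to 0.997. Their mean log2 changes for both labels ran from 0.36 (CPT2) to 1.59 (ECM1) beside GDF15 and from 0.24 (JOSD1) to 1.43 (UPP1) beside DDIT3. These correlations describe 9 libraries that share 3 lines and 3 conditions.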

How the data were processed

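The measurements were RPKM values deposited by the authors, with 58037 genes in 9 columns of 1 table. All columns were used, which leaves 0 unused. Alignment and counting tools are named as STAR and HTSeq, with build GRCh38, per the submitters' processing notes. Versions, gene annotation and strand setting were not given in the sources used here. Read counts were recovered from the RPKM with exon lengths of GENCODE 29 (92.5% of identifiers in the same version, 100% of low values whole within 0.05 of a read), and served only to state depth and the reads behind GDF15.

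Genes with at least 1 RPKM in at least 3 libraries were tested on log2(RPKM + 1), which understates the change of low genes, with limma 3.58.1 in R 4.3.3. Treatment and line were terms, with a mean-variance trend, 4 residual degrees of freedom, two-sided p-values and Benjamini-Hochberg adjustment over 12965 genes (threshold 0.05). Differences between lines were tested by an F-test in a second limma fit, with GSK343 and shEZH2 pooled in each line. That fit had 3 residual degrees of freedom, all from the gap between the labels within lines. Libraries with the same line label were taken to share its cells, so the line is the pairing. Correlations of deviations from group means across genes were 0.358 to 0.953 within lines and -0.914 to 0.0903 between lines.

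The 10 genes and the lists (156 genes in 11 lists) were chosen with earlier results of these data known. Besides the 10 genes and EZH2, genes named are up to 4 per list with the smallest p for the mean of both labels, and the 5 most correlated with GDF15 and with DDIT3. Alternatives were pseudocounts of 0.1 and 0.5, no filter, a mean of at least 5 RPKM, median-ratio rescaling, rescaling to a common sum (TPM scale), no trend, no block, only the libraries compared, and leaving out each library or line. The fits were tested on simulated data with noise drawn independently for each library. That simulation did not cover dependence between libraries, such as that raised for the MDA-MB-453 label.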

Additional observations from a re-analysis of the deposited data

Results flagged for a closer look

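Under both labels, ATF4 and ASNS moved in opposite directions in different lines. For ATF4, both treated libraries of MDA-MB-231 lay below their control, while both of MDA-MB-436 and both of MDA-MB-453 lay above theirs. The mean log2 response of ATF4 was 0.14 higher in MDA-MB-436 than in MDA-MB-231, and 0.49 higher in MDA-MB-453 than in MDA-MB-231. For ASNS, both treated libraries of MDA-MB-436 lay above their control, and both of each other line lay below. The mean log2 response of ASNS was 1.18 higher in MDA-MB-436 than in MDA-MB-231 and 0.84 higher than in MDA-MB-453. The single pairs of lines were not tested. The F-test over the 3 lines did not pass for either gene (limma's adjusted p = 0.183 for ATF4 and 0.0940 for ASNS).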

How the results depend on the processing

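Among the 10 genes, the number passing was 6 for GSK343, 5 for shEZH2 and 6 for their mean against control. With no filter on low values it was 0, 0 and 2. Without the replicate block (the line as a term) it was 1, 1 and 1, GDF15 each time. When a library or a line was left out, it ran from 1 to 6 for GSK343, 1 to 5 for shEZH2, 2 to 7 for their mean, 0 to 0 for GSK343 against shEZH2 and 0 to 7 for the difference between lines. Over all genes the calls then ran from 46 to 1267 for GSK343, 21 to 1639 for shEZH2, 180 to 2083 for their mean and 0 to 11 for GSK343 against shEZH2. Signs turned only for differences that had not passed. Under median-ratio rescaling DDIT4 moved to -0.10 for the mean of both, and GDF15 to -0.0029 for GSK343 minus shEZH2. On the TPM scale DDIT4 was -0.025 for the mean of both, and for GSK343 minus shEZH2 GDF15 was -0.061, ATF4 -0.057 and ASNS -0.0078. With libraries left out, GSK343 minus shEZH2 ran from -0.29 to 0.24 for GDF15, -0.14 to 0.36 for DDIT3, -0.13 to 0.44 for ATF3, -0.064 to 0.12 for ATF4, -0.12 to 0.26 for TRIB3, -0.0067 to 0.43 for SESN2 and -0.14 to 0.21 for ASNS. ATF4 ran from -0.029 to 0.26 for shEZH2 and DDIT4 from -0.11 to 0.18 for the mean of both. The cause of these changes was not tested. The line test has no fit without the block, and the mean of both labels none with only the libraries of 1 label.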
